A study of Mus musculus with 6 samples.

Results

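Long intergenic noncoding RNAs (lincRNAs) were examined in mouse skin with and without repeated ultraviolet B (UVB) exposure. The array used carries 16251 probes of 60 bases whose description names a lincRNA, out of 55681 probes that are not controls. They lie in 3555 genomic intervals, or 4622 when the strands of an interval are counted apart, and each name gives the interval and strand in the mouse build mm9. The probes described were chosen by their signal: each had the scanner software's flag for a signal clearly over background on 3 or more of the 6 arrays, from either group. This left 7531 probes (46.3%), in 2687 intervals, of which 3640 are directed at the forward and 3891 at the reverse strand. Of the other probes on the array, 66.5% passed the same filter.

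The skin came from C57BL/6 mice aged 6 to 8 weeks, labelled male, whose backs had been shaved. In the control group of 3 mice the animals were kept dark and received no UVB. In the UVB group of 3 mice, irradiation of the back at 180 mJ/cm2 began 2 days after shaving and was given 3 times a week for 2 weeks under anaesthesia, and the labels mention no anaesthesia for the controls. RNA of each mouse was hybridised in 1 colour to 1 array. The headers give the 6 arrays the same slide (1) and scan time (1), so neither of these differs between the groups. Batches in other handling steps were not examined. Whole skin was used, and a fall in a transcript there cannot be told apart from fewer cells that carry it.

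LincRNAs are transcripts longer than small regulatory RNAs that arise between protein-coding genes and are not translated into known proteins. Most are expressed at low levels and in few cell types, many are spliced and polyadenylated, and a few have known jobs, such as building nuclear bodies (Neat1), sitting in nuclear speckles beside splicing factors (Malat1) or silencing an X chromosome (Xist). Most intervals on this array carry coordinates in place of a gene name. Below they are identified by the gene whose probe lies nearest, often far away, which states a position and no relation.

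One observation bears on all 6 arrays. All 5 lincRNA probes named XIST, the RNA that coats the inactive X chromosome of females, were well above background on every array, at levels of 1.95 to 5.44, where a level is the log2 signal minus that array's 75th percentile. The 9 probes of 8 Y-linked genes, among them Ddx3y, Kdm5d and Eif2s3y, were well above background on no array and lay between -7.41 and -4.94. These values go against the label of male mice, in the same way in both groups. The XIST probes themselves did not pass the test between groups, with log2 fold changes of 0.23 to 0.64 and adjusted p from 0.214 to 0.453 (limma).

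The probes that carry the main findings are printed from the files 5′ to 3′, on the strand of the transcript they are meant to detect. Capitals mark AATAAA, the commonest polyadenylation signal. The first group belongs to named noncoding RNAs or lies beside their probes. Differences between positions within a locus were not tested.
NEAT1, chr19:5842654-5842713, minus strand: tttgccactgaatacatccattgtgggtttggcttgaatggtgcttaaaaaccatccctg
downstream of Neat1, chr19:5834857-5834916, minus strand: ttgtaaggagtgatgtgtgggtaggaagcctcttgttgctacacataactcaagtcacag
upstream of the NEAT2 probes, chr19:5802267-5802326, minus strand: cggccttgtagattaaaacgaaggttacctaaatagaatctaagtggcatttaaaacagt
TUG1, chr11:3540323-3540382, minus strand: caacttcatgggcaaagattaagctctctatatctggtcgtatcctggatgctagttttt
downstream of the TUG1 probes, chr11:3538927-3538986, minus strand: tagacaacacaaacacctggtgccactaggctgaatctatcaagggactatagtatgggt
H19, chr7:149761693-149761752, minus strand: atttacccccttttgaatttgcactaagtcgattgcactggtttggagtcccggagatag

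The second group comes from unnamed intervals. In those near Ttll7, Trim52, 9530059O14Rik and 2210408F21Rik the other probes of the interval moved too, that near Cyp1b1 had the largest fall measured in both groups, the probes near Adamtsl4, Pcyt1b and Hoxb9 moved alone, and the pair near Dgki reads opposite strands and overlaps at its ends.
near Ttll7, chr3:146646918-146646977, plus strand: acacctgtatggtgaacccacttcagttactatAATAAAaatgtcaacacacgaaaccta
near Trim52, chr14:106639707-106639766, plus strand: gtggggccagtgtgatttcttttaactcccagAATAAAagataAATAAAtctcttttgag
near 9530059O14Rik, chr9:122588655-122588714, plus strand: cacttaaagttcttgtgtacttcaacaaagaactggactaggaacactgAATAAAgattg
near 2210408F21Rik, chr6:31235063-31235122, plus strand: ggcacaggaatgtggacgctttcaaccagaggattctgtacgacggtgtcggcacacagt
near Cyp1b1, chr17:80144297-80144356, plus strand: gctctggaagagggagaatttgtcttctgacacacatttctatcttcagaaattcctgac
near Adamtsl4, chr3:95503032-95503091, minus strand: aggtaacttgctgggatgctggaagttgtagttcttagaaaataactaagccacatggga
near Pcyt1b, chrX:91000519-91000578, minus strand: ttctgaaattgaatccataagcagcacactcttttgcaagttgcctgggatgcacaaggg
near Hoxb9, chr11:96114981-96115040, minus strand: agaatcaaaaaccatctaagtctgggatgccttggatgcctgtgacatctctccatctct
near Dgki, chr6:36789224-36789283, plus strand: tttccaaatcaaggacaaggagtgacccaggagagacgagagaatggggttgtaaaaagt
near Dgki, chr6:36789271-36789330, minus strand: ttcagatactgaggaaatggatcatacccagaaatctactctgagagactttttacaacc

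LincRNA probes that changed after UVB mostly rose. Of the 7531 probes, 406 were higher and 120 lower after UVB at a limma adjusted p under 0.05, with p-values adjusted over all 33767 tested probes of the array. The share called higher was 5.39%, beside 5.07% of all tested probes and 4.98% of those that are not lincRNA probes. The share called lower was 1.59%, beside 6.1% of all tested probes and 7.39% of the others. The control and UVB arrays did not overlap for 1857 lincRNA probes (24.7%), beside 37.2% of all tested probes. The rises are thus near the background of the array, and the falls are fewer than it. Called rises had a median log2 fold change of 1.103, and 238 of them were at least 2-fold. Among rises detected in both groups the largest log2 fold change was 4.41, near Ptpn9. Of the called probes, 21 rises and 18 falls were detected on no array of 1 group, so their fold changes are not exact and they passed the filter only through the group in which they are high. Called falls had a median of -0.87, and 48 were at least 2-fold. These shares are a description of the probe class, with no test between the classes.

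LincRNA probes were dim, with a median level of -2.88 against -0.32 for the other tested probes, so the shares were also taken among probes of like brightness. All tested probes were cut by mean level into 4 groups of equal size. In the dimmest group, 3.72% of lincRNA probes were called higher and 1.29% lower, beside 4.75% and 5.87% of other probes. In the brightest group, 7.21% of the 416 lincRNA probes were called higher and 4.33% lower, beside 3.54% and 6.48% of other probes. The lower share of falls was found in each of the 4 groups, and the higher share of rises in the 2 brighter groups only. Among probes above background on all 6 arrays, 6.27% of 5361 lincRNA probes were higher and 1.72% lower, beside 4.79% and 7.31% of other probes. A comparison with other noncoding genes gave like shares. The 603 probes that are not among the lincRNA set but belong to genes classed as lncRNA in RefSeq were called higher in 6.97% and lower in 1.49%, while 20075 probes of protein-coding genes were called higher in 5.04% and lower in 8.77%.

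**Figure D1:**
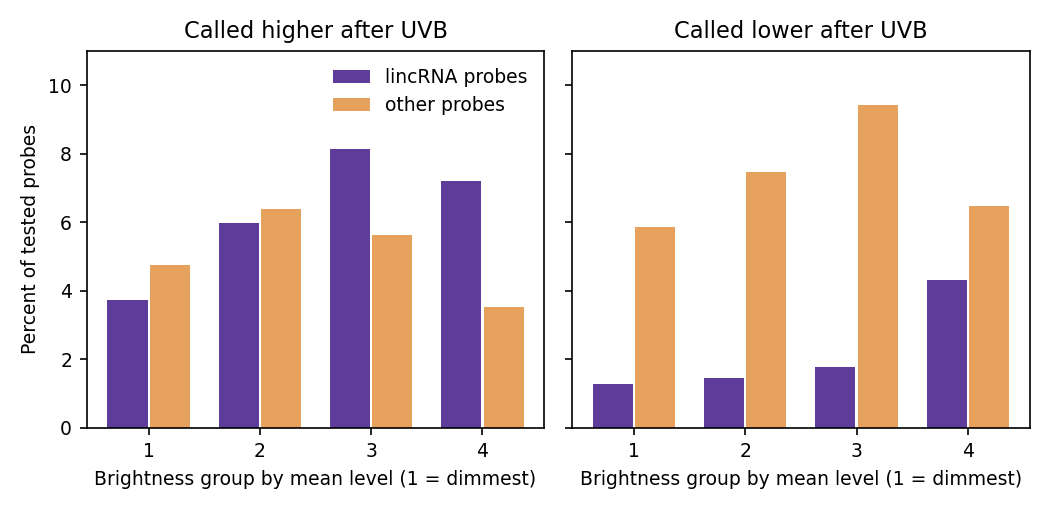
Percent of tested probes called higher (left) or lower (right) after UVB, by brightness group of mean level over all 33767 tested probes (1 = dimmest of 4), for lincRNA and other probes. The lincRNA bars for falls (1.29% to 4.33%) lie below those of other probes (5.87% to 9.41%) in each group.

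The whole class was shifted slightly upward. The median log2 fold change was 0.13 over lincRNA probes and -0.03 over all tested probes. On the single UVB arrays, set against the control mean, the lincRNA median was 0.17, 0.09 and 0.22 on replicates 1 to 3. Probes above background on no array stood at a median level of -7.34 to -6.92 on control arrays and -6.77 to -6.42 on UVB arrays, so dim probes held an offset of the same sign, whose part in the shift was not tested. Detection went the other way, since 1637 of the lincRNA probes were above background on more control than UVB arrays and 277 on more UVB arrays. This was not particular to lincRNA probes. Of all spots that are not controls, 60.9% to 63.3% were well above background on control arrays and 54.9% to 59.6% on UVB arrays. The 583 probes just inside the filter, detected on exactly 3 arrays, had a median level of -4.70, and the 578 just outside it, on exactly 2 arrays, one of -4.98.

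The split between rises and falls depended on the scaling and on single arrays. Rises made up 77.2% of the called lincRNA probes and 45.4% of all called probes. With median scaling they made up 65.8% and 36.2%, and with normexp background correction 90.9% and 54.8%. Median scaling moved the median of all tested probes to -0.13 and normexp to 0.12. The lincRNA median lay above that of all tested probes by 0.16 in the main scaling, 0.15 with normexp and 0.12 with quantile scaling. Median scaling subtracts a constant from each array, as the main scaling does, so it could not change this difference. With every probe of the array kept, dim ones included, the median of the 7531 probes lay 0.03 below that of all probes (difference -0.03). Counts fell when an array was left out, to 91 higher and 28 lower without control replicate 2, 120 and 35 without UVB replicate 1, 204 and 82 without UVB replicate 3, and 209 and 36 without control replicate 3. The order of shares turned in part: lincRNA probes called higher were then 1.21% against 1.58% of all tested probes without control replicate 2, 1.59% against 1.76% without UVB replicate 1, 2.78% against 3.25% without control replicate 3, and 2.71% against 3.09% without UVB replicate 3. Falls alone dropped by more than 1.5 times without control replicate 1, to 30 beside 274 rises, and without UVB replicate 2, to 51 beside 272 rises.

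**Figure D2:**
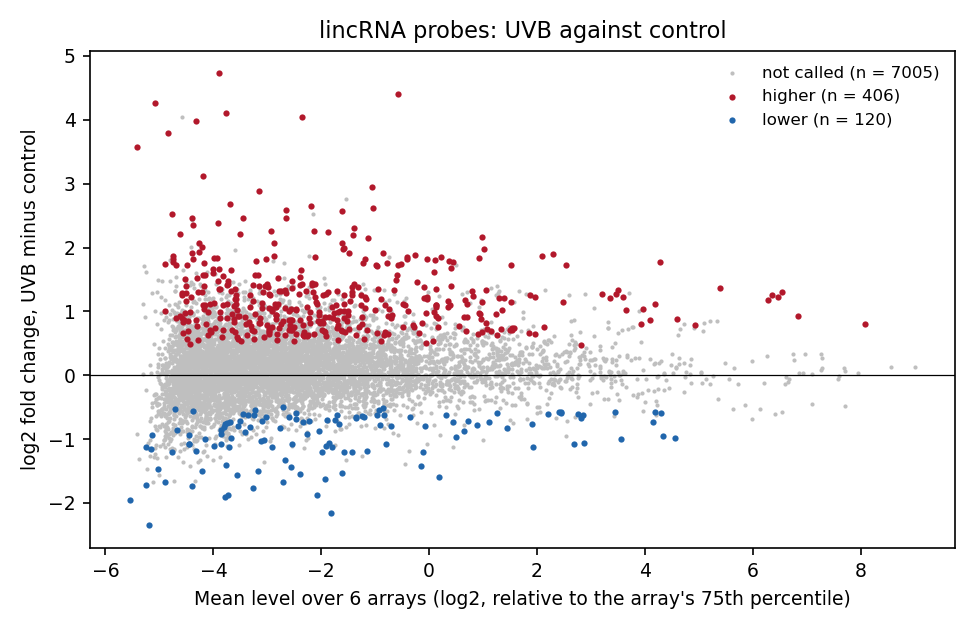
log2 fold change (UVB minus control) of each of the 7531 lincRNA probes against its mean level over 6 arrays, with 406 called higher in red, 120 called lower in blue and 7005 not called in grey. Called rises reach higher absolute values than called falls, the most extreme being probes undetected in 1 group, and most probes sit below a level of 0.

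Several probes of one transcript give a check that a lone probe lacks, although they are not replicates of the condition. Counting each strand of an interval as a region, 1119 regions held at least 3 tested probes, and 221 of these had a called probe. In 134 of the 221 only 1 probe was called. In 24 regions all probes were called higher and in 4 all were called lower, and 1 region held calls of both signs. Over those 24 regions the median log2 fold change ran from 0.66 to 2.58. In 6 of the 24, all probes were also called in each of the 6 fits that left out an array, and in 10 at least 1 such fit left no probe called. Some annotated intervals overlap, so these counts are not of separate loci. The regions nearest Ttll7, described below, are among these 6, and 1 of them lies inside another.

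The region with most concordant probes lay near Dennd1b, which encodes an exchange factor for Rab GTPases (chr1:141070245-141076841, plus strand). The median level over its 7 probes was 0.06, 0.27 and 0.33 on the control arrays and 1.34, 1.38 and 1.74 on the UVB arrays. All UVB arrays stood above all controls. All 7 probes rose, by 1.16 to 1.33 on the log2 scale, with adjusted p of 0.00542 to 0.0137. Without control replicate 2, 4 of the 7 were still called, and without any other array all 7. The nearest probe of Dennd1b itself, 4879 bases away on the same strand, gave 0.94 ± 0.27 on the log2 scale (errors are limma standard errors, with n = 3 mice in each group throughout; adjusted p = 0.0727).

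In 3 annotated regions on the plus strand of chromosome 3, for which Ttll7, a tubulin polyglutamylase gene, is the nearest gene, all tested probes rose. In chr3:146645022-146646977 the 3 probes had median levels of -1.36, -1.13 and -1.11 in controls and 0.78, 0.90 and 0.34 after UVB, with no overlap. Their log2 fold changes were 1.80 to 1.88, with a median SE of 0.19. A longer region that contains this one (chr3:146629425-146649125) had 4 probes at 1.76 to 1.85, and some of these probes share sequence with the first 3. In a further interval on the other side of the tested Ttll7 probe (chr3:146515333-146557069), 3 probes rose by 1.75 to 2.08. All 10 probes remained called without any single array. The tested Ttll7 probe, on the same strand and 4044 bases from the nearest probe of the first interval, rose by 1.37 ± 0.14 (SE, adjusted p = 0.00476, limma). The probe printed above holds an AATAAA.

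Near Nfil3, a bZIP transcription factor of the circadian clock and of lymphoid cells, 3 dim probes rose, 1 of which was detected on no control array (chr13:53100475-53113850, plus strand). Their median level was -4.71, -4.68 and -4.63 in controls and -2.43, -2.04 and -2.19 after UVB. Control and UVB arrays formed separate, tight groups. Log2 fold changes were 1.82 to 2.46, the smallest adjusted p was 0.00142, and no left-out array removed a call. The Nfil3 probe, 50856 bases away on the other strand, rose by 1.099 ± 0.19 (adjusted p = 0.0205, limma). Normexp gave a smaller median log2 fold change for the region, 1.18 beside 1.98.

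In the region nearest to Acox3, a peroxisomal acyl-CoA oxidase (chr5:35975265-35982561, minus strand), the median level of 4 probes was 0.46, 0.37 and 0.25 in controls and 1.84, 2.43 and 2.11 after UVB. All 4 probes rose by 1.72 to 1.91 and stayed called without any single array. The nearest probe, that of Acox3 at 20544 bases, had a log2 fold change of -0.29 ± 0.23 and an adjusted p of 0.446 (limma).

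Other concordant rises rested more on single arrays. In the interval whose nearest gene is Trim52, 132055 bases away, 3 probes had median levels of -3.03, -3.16 and -2.50 in controls and 0.37, -0.38 and -0.96 after UVB (chr14:106562325-106660675, plus strand), and rose by 2.31 to 2.65. None of them was called without control replicate 2. On chromosome 10 an interval (chr10:6480075-6603900) rose on both strands. The nearest probe to its minus-strand probes, at 107524 bases, is that of Plekhg1, which rose by 2.39 ± 0.34 (adjusted p = 0.0121, limma). The minus-strand probes rose by 1.79 to 2.21, of which 2 were detected on no control array, so that these values are not exact, and the plus-strand probes by 1.49 to 1.73. Without UVB replicate 1 no minus-strand probe was called, while all 3 plus-strand probes were called in each such fit. Near Enah, an actin regulator of the Ena/VASP family, 3 probes rose by 0.90 to 0.97, and the Enah probe 1560 bases away on the same strand by 1.21 ± 0.16 (adjusted p = 0.00894, limma). Without UVB replicate 1, 1 of the 3 probes near Enah was called, and without any other array all 3.

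Concordant falls were fewer. In chr6:31170350-31287353 (plus strand), near 2210408F21Rik, the median level of 3 probes was -2.00, -1.74 and -1.79 in controls and -3.36, -3.33 and -3.13 after UVB. All controls stood above all UVB arrays, the log2 fold changes were -1.56 to -1.43, and each call remained without any single array. The probe of Gm16863 fell by 1.30 on the log2 scale (SE 0.17, adjusted p = 0.009, limma), and 3 lincRNA probes on its strand, at least 1 of them overlapping it (chr16:21247571-21296945), fell with log2 fold changes of -1.51 to -0.92. In both regions normexp shrank the median log2 fold change, to -0.59 and -0.40.

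A brighter fall lay near Mrpl1, a mitochondrial ribosomal protein gene (chr5:96591892-96606467, plus strand). Its 3 probes had median levels of 4.02, 4.11 and 4.06 in controls and 3.11, 3.29 and 2.80 after UVB, and log2 fold changes of -1.08 to -0.98. The groups did not overlap, and normexp gave a median of -1.04. No probe was called without control replicate 2 or without UVB replicate 1. Mrpl1 itself, 64360 bases away, had 0.16 ± 0.13 (adjusted p = 0.457, limma).

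A pair of longer regions fell in part. Near Tigit, an inhibitory receptor of T and NK cells (chr16:43623581-43642715, plus strand), 6 of 9 probes were called lower, with log2 fold changes over all 9 of -1.56 to -0.49. Near Tnfsf18, the ligand of the T cell receptor protein GITR (chr1:163508244-163586072, minus strand), 4 of 5 were called lower, over a range of -1.77 to -0.69, and the Tnfsf18 probe fell by 2.40 on the log2 scale (SE 0.20, adjusted p = 0.00329, limma). No probe of the region near Tigit was called without control replicate 2 or without UVB replicate 1. None of the region near Tnfsf18, 91898 bases from that gene's probe, was called once UVB replicate 2, control replicate 1 or control replicate 3 was left out. Normexp gave median log2 fold changes of -0.30 and -0.50 for these regions. Of 9 tested markers of Langerhans and dendritic cells 6 were lower and none higher, and their summed linear signal, relative to each array's 75th percentile, was 202 to 235 in controls and 87.3 to 117 after UVB. All 9 were above background on all 6 arrays. Of 10 tested T cell markers 3 were higher and 3 lower, with summed signal of 19.7 to 25.02 in controls and 13.1 to 18.7 after UVB, and 1 of the 10 was above background on no control array. The part of these cells in the lincRNA falls was not tested.

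Of 37 called probes with at least 4-fold change in either direction, 25 lay in regions with at least 3 tested probes, and 7 of the 25 were the only called probe there. Near Ptpn9, a cytoplasmic tyrosine phosphatase (plus strand), a probe was at -2.43, -2.91 and -2.99 in controls and at 0.52, 0.52 and 3.85 after UVB. UVB replicate 3 stood far above the other UVB arrays. Its log2 fold change was 4.41 ± 0.89 (adjusted p = 0.0307, limma), and the region's other probe had 0.16. Near Eomes, a T-box factor of cytotoxic lymphocytes, a minus-strand probe was at -4.05, -4.90 and -4.21 in controls and at -1.47, -1.56 and 2.03 after UVB, with UVB replicate 3 again highest. Its log2 fold change was 4.05 ± 0.96, and 2 other minus-strand probes of the region had -0.59 and -0.16. Normexp gave 2.56 for this probe. The probe near Ptpn9 stayed called in 2 and the probe near Eomes in 1 of the 6 fits without an array, and UVB replicate 3 was not among the arrays whose absence ended either call. Without UVB replicate 3 the log2 fold changes were 3.30 and 2.87.

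A steadier rise lay 22708 bases from the probe of Hoxb9. The lincRNA probe nearest Hoxb9, a homeobox factor of body axis patterning, read the minus strand and was at -2.25, -2.92 and -2.41 in controls and at -0.05, 0.70 and 0.62 after UVB. The groups were far apart and tight. The log2 fold change was 2.95 ± 0.27 (adjusted p = 0.00398, limma), it stayed called without any single array, and the region's other probe had 0.03. The Hoxb9 probe, on the other strand, had 1.17 ± 0.38 (adjusted p = 0.0961).

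The other named rises were dim in controls. A probe whose nearest gene is 9530059O14Rik, 99257 bases away, was at -4.00, -4.65 and -5.16 in controls and at -1.78, -1.86 and -1.52 after UVB, a log2 fold change of 2.88 ± 0.30 (adjusted p = 0.00506, limma), and both other probes of its region were called higher, at 1.33 and 2.58. Near B230303A05Rik a probe rose by 2.68 ± 0.34, and near Trim52 one rose by 2.65 ± 0.42. Near Tln2, which encodes the focal adhesion protein talin 2, a probe on the opposite strand was at -7.01, -5.94 and -4.32 in controls and at -2.54, -2.65 and -2.71 after UVB. The controls spread widely, the log2 fold change was 3.12 ± 0.63, and 2 other probes of the region had -0.45 and 0.15. For a probe near 1700018B08Rik the log2 fold change was 3.98 ± 0.66, and the region's other probe had 0.11. The probes near Tln2 and 1700018B08Rik were above background on 1 control array only, and each stayed called in 2 of the 6 fits without an array. The probe near Trim52 was lost without control replicate 2 and without UVB replicate 1. Normexp reduced all 5 values, to 1.39 near 9530059O14Rik, 1.19 near B230303A05Rik, 1.61 near Trim52, 1.11 near Tln2 and 1.27 near 1700018B08Rik.

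Probes not above background on any control array passed the filter through the UVB arrays alone, so they had to differ, and they allow a bound only, computed against the lowest well-measured signal of each array. Near Adamtsl4, a protein of the elastic fibre matrix, a probe was at -6.35, -5.60 and -6.86 in controls and at -2.28, -1.22 and -1.13 after UVB, at least 12.0-fold higher. The region's other probe had a log2 fold change of -0.14. Near Pcyt1b, an enzyme of phosphatidylcholine synthesis, a probe was at -5.03, -6.45 and -5.96 in controls and at -2.23, -1.55 and -1.37 after UVB, at least 10.68-fold higher. It was detected on all UVB arrays and no control array. The 8 other tested probes of that region, on the same strand, had log2 fold changes of -0.09 to 0.21 and none was called. Near Cdk15 a probe was at least 4.59-fold higher, beside 2 others at 0.44 and 0.65. The sizes depend on how background is treated, since normexp gave log2 fold changes of 1.75, 1.65 and 1.099. Bounds in the other direction were at least 2.42-fold lower near Plin2, the coat protein of lipid droplets, at least 2.25-fold near Zfp936 and at least 1.87-fold near 1700123M08Rik, and with normexp their log2 fold changes were -0.10, -0.02 and 0.02. Plin2 itself fell by 1.44 on the log2 scale (SE 0.18, adjusted p = 0.00818).

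Among falls measured in both groups the largest lay near Cyp1b1, a cytochrome P450 induced through the aryl hydrocarbon receptor. The probe was at -0.62, -0.75 and -0.84 in controls and at -3.37, -3.13 and -2.20 after UVB, a log2 fold change of -2.16 ± 0.30 (adjusted p = 0.0118, limma). A second probe of the region, adjoining it, had -1.62 ± 0.32, and the remaining probe had 0.67 and was not called. The first was lost without control replicate 2 (adjusted p = 0.0507), the second was called in 1 of the 6 fits without an array, and normexp gave -1.14 and -0.87. Cyp1b1 itself, 37691 bases away on the other strand, had -0.76 ± 0.23 (adjusted p = 0.0813). Near Pdss1, an enzyme of ubiquinone synthesis, a probe had -1.91 ± 0.43, and the Pdss1 probe on the same strand fell by 1.90 on the log2 scale (SE 0.17, adjusted p = 0.00383). The region's other probe had 0.61. The lincRNA probe was called in 2 of the 6 fits without an array, and normexp gave -0.34 (adjusted p = 0.0628), which is not called.

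Near Dgki, a diacylglycerol kinase, a pair of neighbouring minus-strand probes fell. They had -1.87 ± 0.22 and -1.67 ± 0.29 and adjoin each other. Normexp gave -0.37 and -0.67, and the second was called in 1 of the 6 fits without an array. Near 2210408F21Rik the named probe belongs to a shorter interval (chr6:31233512-31241062, plus strand) inside the one described above. It was at -1.25, -1.06 and -1.12 in controls and at -2.57, -3.32 and -3.16 after UVB. The log2 fold change was -1.87 ± 0.21 (adjusted p = 0.00656, limma), or -0.96 with normexp. Near Tnfsf18 the named probe had -1.77 ± 0.30, was called in 2 of those fits, and was not called with normexp (-0.50, adjusted p = 0.0849). The last of the 8 falls, near B230319C09Rik, had -1.59 ± 0.39, an adjusted p just under the threshold and 2 neighbours at 0.02 and 0.25, and was called in 1 of those fits.

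**Figure D3:**
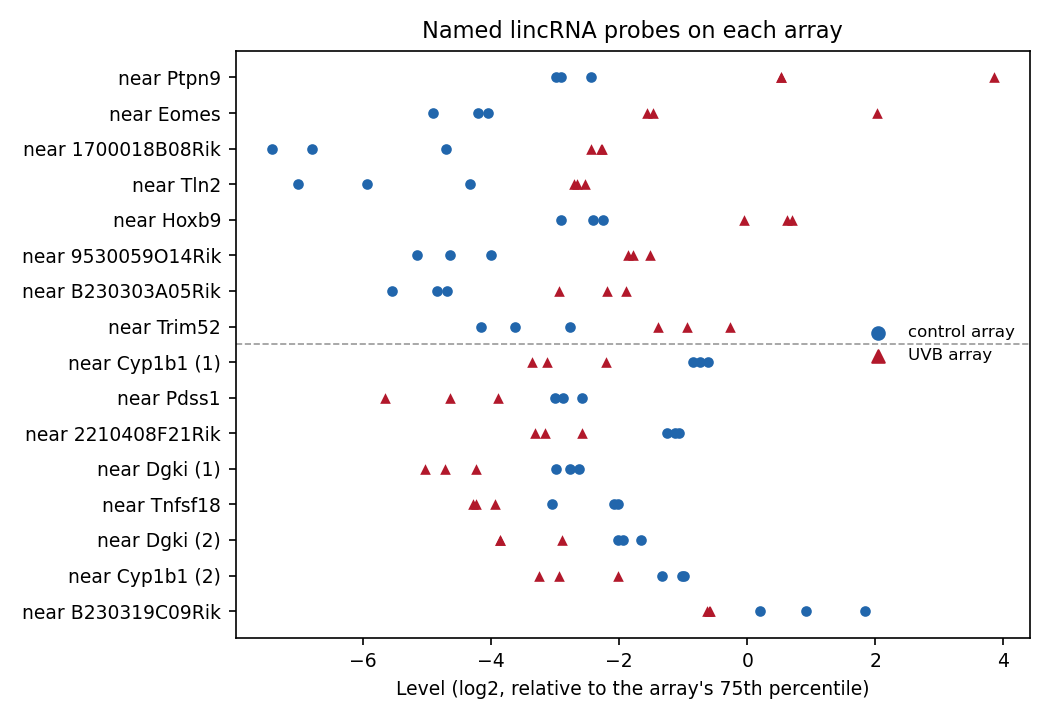
Level (log2, relative to the array's 75th percentile) of the 8 largest rises (above the dashed line) and 8 largest falls (below it) on each array, control as blue circles and UVB as red triangles, labelled by nearest gene. The groups are apart in every row because only such probes were eligible. UVB replicate 3 stands alone at 3.85 near Ptpn9 and 2.03 near Eomes.

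The 5 brightest lincRNA probes did not move alike. Those nearest B3gnt2, P2ry2 and Akap11 had log2 fold changes of 0.12 ± 0.15, 0.13 ± 0.14 and 0.03 ± 0.12. The probe near Gm6712 had -0.49 ± 0.16 (adjusted p = 0.105, limma). The fifth is a probe upstream of the NEAT2 probes, at 7.49, 7.94 and 7.62 in controls and 8.80, 8.26 and 8.41 after UVB, with a log2 fold change of 0.81 ± 0.20 and an adjusted p of 0.0496, and it was called in none of the 6 fits that left out an array.

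Named noncoding RNAs were represented by 31 tested probes with 11 names. Neat1, the scaffold RNA of nuclear paraspeckles, rose on each probe. The 5 NEAT1 probes (chr19:5842306-5845476, minus strand) had median levels of 5.75, 5.91 and 5.52 in controls and 6.92, 6.82 and 7.20 after UVB, which places them far above the 75th percentile of the array. All UVB arrays stood above all controls. Their log2 fold changes were 1.17 to 1.36, with adjusted p of 0.00799 to 0.0150 (limma). Between 3 and 5 of them were called when an array was left out, with 3 left without UVB replicate 1. The gene probe of Neat1 gave 1.21 ± 0.17 (adjusted p = 0.0107, limma). It overlaps at least 1 of the NEAT1 probes on the same strand, so it is no independent measurement where both read the same bases.

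Neat1 has a short form and a long form that share the 5′ end, and the long form runs on downstream. A separate region downstream on the same strand (chr19:5834117-5835940), with probes 7648 to 7962 bases from the Neat1 probe, rose by 1.73 to 1.91. Its median levels were 0.40, 1.05 and 2.02 in controls and 3.43, 3.21 and 2.42 after UVB. The groups were apart, but control replicate 3 came near UVB replicate 3. The calls were close to the threshold, at adjusted p of 0.0261 to 0.0499, and none was left when UVB replicate 1, UVB replicate 2, control replicate 1 or control replicate 2 was dropped. Whether this region belongs to the long form was not tested.

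Malat1, a nuclear RNA of splicing speckles transcribed from the neighbouring locus, had called and uncalled probes along its length. The 3 probes named NEAT2, an older name of Malat1 (chr19:5795689-5802671), had log2 fold changes of 0.24 to 0.25 and were not called, with adjusted p of 0.512 to 0.526. In the same interval but towards its 5′ end, 3 probes of chr19:5798135-5800557, 2484 to 2789 bases from the Malat1 gene probe, had 0.79 to 0.83, and 2 of them were called. At 6358 to 6495 bases, 3 probes of chr19:5801802-5802597 had 0.81 to 0.92, and 2 were called. The highest, at 6.27, 6.53 and 6.32 in controls and 7.49, 7.02 and 7.38 after UVB, had 0.92 ± 0.17 (adjusted p = 0.0235, limma), and it was lost in 5 of the 6 fits that left out an array. The difference between the upstream and downstream probes of the locus was not tested.

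Tug1 gave a like picture. The 5 TUG1 probes had log2 fold changes of 0.08 to 0.12 and none was called (adjusted p of 0.563 or more), and 3 probes of an overlapping annotation, which share most of their bases, had 0.04 to 0.07. Inside the locus, 3 probes of chr11:3542140-3546888 had 0.47 to 0.64 and missed the threshold at adjusted p of 0.0735 to 0.0829. The Tug1 gene probe had 0.61 ± 0.18 (adjusted p = 0.0776, limma). Past the TUG1 probes on the same strand, 731 to 1547 bases from the gene probe, 6 dim probes had 0.66 to 1.51, and 3 were called. These 3 were called in 5, 3 and 0 of the 6 fits without an array, and normexp gave 0.66, 0.83 and 0.53 for them. The one at 1.51 was detected on no control array, so its value is not exact. The probe printed above was at -3.43, -3.49 and -4.26 in controls and -2.23, -2.53 and -2.12 after UVB, a rise of 1.43 ± 0.26 (adjusted p = 0.0223, limma).

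H19, an imprinted RNA of growing tissue, was lower on all 5 of its probes, with log2 fold changes of -1.36 to -0.81. The probe printed above was at -1.75, -1.14 and -1.16 in controls and -2.41, -2.68 and -2.29 after UVB, a difference of -1.11 ± 0.21 (adjusted p = 0.0267, limma). A second probe had -0.87 ± 0.20 and was also called, and the other 3 were not. The first was called in 2 and the second in 1 of the 6 fits without an array, and normexp gave -0.58 and -0.40 for them and -0.07 to 0.04 for the other 3. Beside Airn, the imprinted antisense RNA of the Igf2r locus, 4 of 5 probes of chr17:12941161-12944859 on the same strand rose. Their log2 fold changes were 1.42 to 1.73, the fifth had 0.70, and the nearest Airn probe rose by 1.55 ± 0.26 (adjusted p = 0.0189, limma). The 5 probes were dim, at mean levels of -4.48 to -2.17, and 3 of the 5 were detected on all 6 arrays. Normexp gave a median log2 fold change of 0.74 for the region, beside 1.44. In the fits without an array, 1 to 3 of the 5 were called, with 1 left without any array other than UVB replicate 2.

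**Figure D4:**
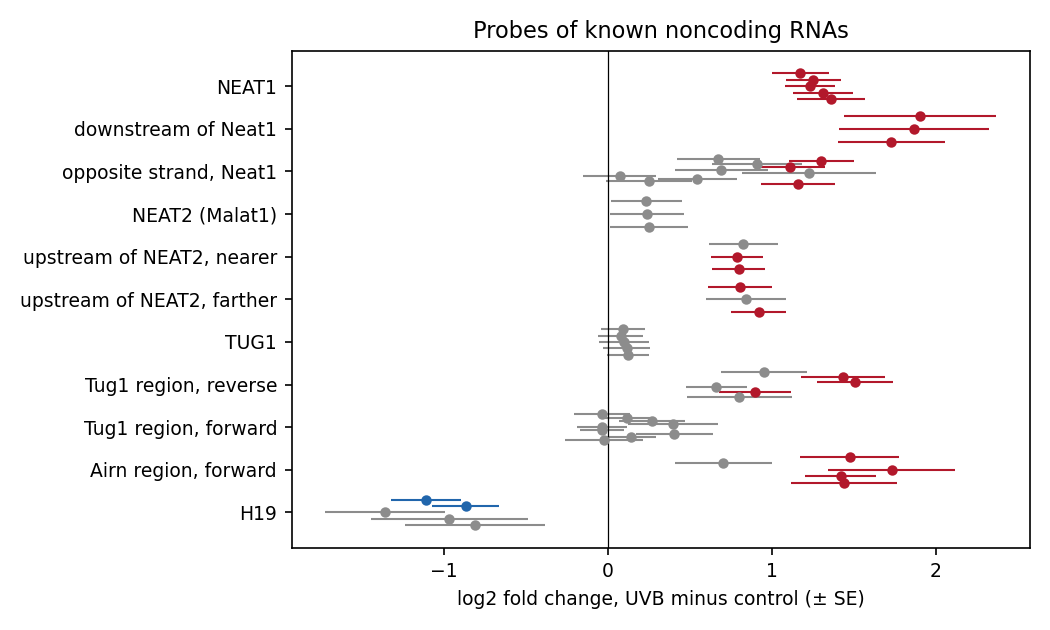
log2 fold change with its standard error for each probe in regions of Neat1, Malat1, Tug1, Airn and H19, with called rises in red, called falls in blue and other probes in grey. All 5 NEAT1 probes are called higher, the NEAT2 and TUG1 probes lie near 0, and probes upstream of NEAT2 and on the reverse strand of the Tug1 region lie further right.

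A list of 79 named long noncoding RNA genes, measured by gene probes outside the lincRNA set, had 37 tested members. Of these, 4 rose and none fell, with a median log2 fold change of 0.08. Beside Neat1 these were Meg3, an imprinted RNA, at 1.67 ± 0.37 (adjusted p = 0.0374, limma), Rpph1, the RNA subunit of RNase P, at 0.86 ± 0.15, and Airn, measured on its brightest probe, at 0.73 ± 0.16. The small nucleolar RNA hosts Gas5, Snhg6, Zfas1 and Snhg3, bright at levels of 3.63 to 4.63 in the group means, had -0.07 ± 0.15, 0.06 ± 0.14, 0.20 ± 0.16 and -0.04 ± 0.21, and none was called. H19 on its gene probe had -0.98 ± 0.24 and was not called (adjusted p = 0.0504, limma).

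Probes on one strand moved together more than probes on opposite strands. Over 2144 pairs of neighbouring same-strand probes that start 60 to 120 bases apart, 74.1% had the same sign and the log2 fold changes correlated at r = 0.56. Over 397 pairs on opposite strands that start within 30 bases of each other, 55.9% had the same sign and r was -0.015. The pairs share arrays and, where they belong to 1 transcript, the RNA, so these values are a description. Between the strands of the 715 regions tested on both, the medians correlated at r = 0.06.

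Among the 5 widest differences between strands of 1 interval, that near Dgki is shown by the printed pair. There the minus-strand probe printed above was at -3.98, -3.94 and -4.16 in controls and -5.95, -6.41 and -6.77 after UVB, a log2 fold change of -2.35 ± 0.22 (adjusted p = 0.00437, limma), while the plus-strand probe had 1.29 ± 0.56 (adjusted p = 0.180). The minus-strand probe was detected on no UVB array, so its difference is a bound of at least 1.62-fold, and normexp gave -0.04. The other 4 pairs set the single minus-strand probes described above near Eomes, Pcyt1b, Cdk15 and B230303A05Rik, those near Pcyt1b and Cdk15 known only as bounds, against single plus-strand probes with log2 fold changes of -0.79 to 0.32, which were not called. Near Eomes another plus-strand probe of the interval was called higher, at 2.14. Across the Neat1 gene, 10 plus-strand probes of a long interval had log2 fold changes of 0.07 to 1.30, all above 0, and 3 were called. Probes on the plus strand there read the strand opposite to Neat1.

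**Figure D5:**
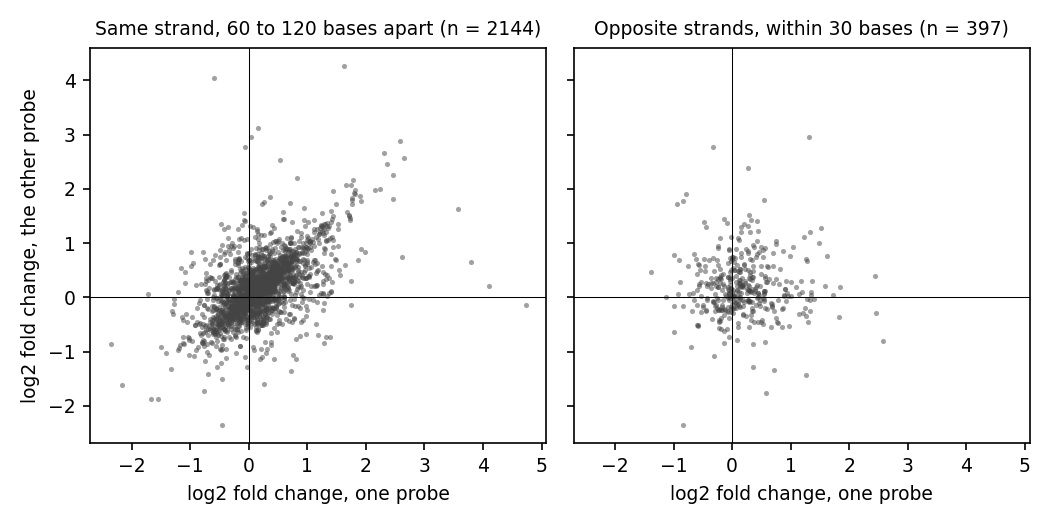
log2 fold changes of neighbouring lincRNA probes on the same strand (left, 2144 pairs) and on opposite strands (right, 397 pairs), each point being 1 pair. Same-strand pairs lie along the diagonal (r = 0.56) and opposite-strand pairs do not (r = -0.015).

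LincRNA probes were set beside the gene whose probe lies nearest. For 96 lincRNA probes that overlap a gene probe of the same strand, 92.7% had its sign and r was 0.90, which is no independent measurement where both read the same bases. For 1337 probes 1 to 10000 bases from the nearest gene probe on the same strand, 61.0% had its sign and r was 0.43. The values were 57.2% and 0.19 for 831 probes on the opposite strand. From 10 to 100 kb the correlations were 0.07 and 0.13, and beyond 100 kb they were 0.28 for 321 probes on the same strand and -0.03 for 284 on the opposite strand. Many lincRNA probes share 1 gene, 375 genes for the 1337 probes, so these too are descriptions. Where a called lincRNA probe had a called gene within 10 kb, the signs were the same in 55 of 56 probes. Of these probes 7 overlap the gene probe, and some share 1 gene. A second count took called probes at 1 to 10000 bases from a tested gene probe, whether that gene was called or not. It is not a separate set, since it includes 39 same-strand and 10 opposite-strand probes of the 56. In it the sign was the same in 94 of 108 on the same strand and 32 of 49 on the opposite strand.

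UVB skin had far more signal from hair and cornification genes, so lincRNAs beside those clusters were looked at separately. Of 28 tested markers of hair shaft and inner root sheath 21 were higher and none lower, with summed linear signal of 17.9 to 20.4 in controls and 366 to 1559 after UVB, and 5 were above background on no control array. Of 24 cornification genes 15 were higher. The 12 keratinocyte markers were above background on all arrays and none was called. Of 17 lincRNA probes within 50 kb of genes of these clusters, 2 were called, beside 11.2% of all tested probes in either direction. Near Hrnr, a cornified envelope protein, a probe rose by 1.77 ± 0.39 (adjusted p = 0.0379, limma), beside 1.77 ± 0.37 for Hrnr, and was called in 2 of the 6 fits without an array. Near Krt36, a hair keratin, a probe was at -0.13, -0.70 and -0.83 in controls and 0.16, 0.57 and 0.55 after UVB, a rise of 0.98 ± 0.23 (adjusted p = 0.0431), beside 3.71 ± 0.68 for Krt36, and was called in 1 of those fits. Near S100a6, 3 of the named probes had -0.59 to -0.38 and were not called. Of 10 melanocyte markers 7 were higher, with summed signal of 6.43 to 7.44 in controls and 20.1 to 29.95 after UVB. The part of these cell types in the other lincRNA rises was not tested.

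The probes' base composition went with detection. Of lincRNA probes with at most 35% G and C, 31.3% passed the filter, and of those above 55%, 81.8% passed. AATAAA was found in 3.74% of the tested probes, 4.93% of those called higher, 3.33% of those called lower and 3.92% of all 16251 lincRNA probes. Its reverse complement, TTTATT, was found in 2.78%, 3.45%, 5.83% and 3.03%. The 20 called rises with AATAAA include the printed probes near Ttll7, Trim52 and 9530059O14Rik.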

How the data were processed

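RNA from the skin of 6 mice was measured on 1-colour Agilent arrays. Per the file headers and the submitters' processing notes, the authors extracted spot intensity with Agilent Feature Extraction 10.7.1.1. The deposited table of log2 values, whose columns hold alike distributions, served as an alternative. Its making is not stated in the labels or headers.

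Spots flagged as outliers and control spots were left out, log2 intensity was taken, each array's 75th percentile was subtracted, and spots of a probe were averaged. The 33767 probes well above background on at least 3 arrays were fitted with limma 3.58.1 in R 4.3.3 (lmFit, eBayes, two-sided, no covariate), with Benjamini-Hochberg adjustment over all of them. A probe was called at an adjusted p under 0.05. Errors are limma standard errors, n is 3 mice per group, numbered as in the sample titles (every description reads replicate 1), and the number of arrays limits the precision. No spot was saturated. For a bound, each array of the undetected group took its lowest signal well above background, or the probe's signal if that was higher, and their mean was set against the detected group's.

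Probes were named as genes through a RefSeq table of GRCm38.p6 (26685 of 55681 by accession, 2538 by symbol and 474 by synonym). It gave names alone. Coordinates (mm9) come from the deposited files. Probe sequences are those of the files. Of the lincRNA probes tested, 66 had no position of their own.

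The lincRNA set, the marker lists and the rules were chosen with earlier results of these data known. The rule named the 8 largest called rises and falls measured in both groups, among probes whose control and UVB arrays do not overlap. It also named the 3 largest bounds in each direction, the 5 brightest probes and the 5 widest strand pairs. The rest were at most 8 neighbours of hair and cornification genes and the 5 called probes of smallest p with a called gene within 10 kb. Regions with concordant calls and the probes of Neat1, Malat1, Tug1, Airn, H19 and Xist were added after their values were seen. The steps were tested on simulated data. Other scalings, background correction, filters, the deposited table, 1 probe per region, a replicate block and leaving out each array were tried.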

Additional observations from a re-analysis of the deposited data

How the results depend on the processing

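The counts of 406 higher and 120 lower probes stayed within 1.5 times under quantile and median scaling, with outlier spots kept, in the deposited table, with detection on all 6 arrays or on all 3 of a group, and with trended robust moderation. Normexp gave 1112 higher. The 75th percentile over detected probes gave 79 lower. Without a filter on dim probes, which tests more probes, there were 202 higher and 45 lower, and with 1 probe per region, which tests fewer, 194 and 35. Leaving out an array gave 91 to 274 higher and 28 to 82 lower, and medians of 0.10 to 0.19. The median of 0.13 became 0.054 with quantile scaling, 0.053 in the deposited table, 0.027 with median scaling, 0.21 with the 75th percentile over detected probes and 0.27 with normexp. The causes were not tested. With the replicate number as a block, 83 were higher (1.102%, beside 1.48% of all tested probes) and 14 lower (0.186%, beside 0.883%). Deviations of same-numbered arrays from their group means correlated at -0.11, -0.27 and -0.09. With 3 arrays per group these values cannot settle whether the numbers pair the mice. Of 46 named probes, 31 were called, and 14 of these were called with the block, 25 with normexp and 16 to 23 without an array. Signs turned in 16 cases, among them 1 called probe, near 1700123M08Rik (0.019 with normexp). The others were not called. With quantile scaling and in the deposited table the value was -0.0932 and -0.0929 near B3gnt2, and -0.022 and -0.025 near P2ry2. Near Akap11 it was -0.0738 with quantile scaling, -0.0688 with median scaling, -0.0466 with normexp, -0.0757 in the deposited table, and -0.0402 to 0.0706 without an array, lowest without control replicate 2. Normexp gave 0.0788 near S100a6 and 0.21, 0.23 and 0.18 on the plus strands near Eomes, B230303A05Rik and Pdk3. On the plus strand near Cdk15 it was -0.0895 and -0.25 without UVB replicates 1 and 2, and 1.29 without UVB replicate 3.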
